A study of Trachemys scripta elegans with 3 samples.

Results

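The genes described here are the cytokine, chemokine and innate sensing genes expressed in the liver of the red-eared slider, a freshwater turtle. Their unigenes, the gene-level sequences of a transcriptome assembled without a genome, were chosen by annotation alone. A unigene was taken when its best protein match came from 1 of 5 reptile genera (Chrysemys, Chelonia, Pelodiscus, Trachemys or Alligator) and its description held 1 of 10 terms such as interleukin, chemokine, interferon, toll-like receptor or tumor necrosis factor. This gave 517 of 205118 unigenes, or 517 of the 31658 with a best match in those 5 genera. They belonged to 457 assembly components, since some components were split into several unigenes, and were placed in 28 families by name.

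The study kept 2-year-old turtles for 30 days in freshwater (0 psu, the control) or in saltwater of 5 or 15 psu, with 3 animals at each salinity. All animals were fasted for a day before liver was taken. The livers of the 3 animals of a group were mixed into 1 library of poly(A) mRNA, so there were 3 libraries in all. The sample labels write the salinities as percentages under the heading of practical salinity units, and psu is used here. No genotype, strain or drug differed between the groups, and the turtles came from a farm. With 1 pooled library per salinity there was no replicate, so values carry no error, no difference was tested, and the spread between turtles is unknown.

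Chemokines are small secreted proteins that draw leukocytes along a gradient by acting on G protein-coupled receptors, while interleukins, interferons and tumor necrosis factor ligands carry signals between leukocytes and tissue cells. Toll-like receptors and cytosolic sensors recognise microbial molecules and, through NF-kappa-B and interferon regulatory factors, switch on cytokine genes. In liver, interleukin-6 acting on hepatocytes drives the acute phase proteins of plasma, suppressors of cytokine signaling (SOCS) restrain the same receptors, and resident macrophages are a main source of cytokines. These roles were worked out in mice and humans, and the gene names below are those of the nearest protein match, not of a proven orthologue.

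Levels are given as FPKM, the fragments of a unigene relative to its length and to all fragments mapped. Differences are given as log2 fold changes after adding 0.1 to each FPKM. A unigene was counted as different when this value reached 1 in size, that is 2-fold, and when its FPKM was at least 1 in either library compared. A unigene listed at 0 in a library is given by its FPKM only, without a fold change. Differences between libraries in the amount of an mRNA may come from fewer cells of a type or from less RNA per cell, and in mixed tissue the 2 cannot be told apart.

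The summed FPKM of all unigenes was 986004, 969628 and 960385 at 0, 5 and 15 psu, and the files hold no fragment counts, so the precision of single values could not be computed. Hepatocyte markers were present in every library, with a summed FPKM of 16395 in freshwater, 8246 at 5 psu and 9312 at 15 psu. Most of that difference lay in serum albumin, with c111797_g1 at 4846 in freshwater, 824 at 5 psu and 1268 at 15 psu. A second albumin unigene, c111797_g2, was at 3791, 694 and 978 in the same order. Apolipoprotein A-I (c110453_g1) was at 2751, 2403 and 2569. By its most abundant unigene, each of the 5 hepatocyte markers was lower at 15 than at 0 psu, and 4 were lower at 5 psu. All 9 macrophage markers were found, and their summed FPKM was 2222, 1916 and 2330 in the same order. T cell markers, of which 6 of 7 were found, summed to 147, 84.8 and 61.5, and the 5 B cell markers summed to 208, 175 and 77.0. Much of the T cell difference lay in CD3E, with c124291_g1 at 62.01, 25.6 and 24 and c101741_g1 at 30.1, 0 and 0. Most of the B cell sum was immunoglobulin J chain (c108586_g1) at 181, 152 and 64.9. Granulocyte markers, 5 of 7 found, summed to 42.7, 41.5 and 47.3, erythroid markers to 1658, 2080 and 1209, and bile duct markers to 62.8, 68.0 and 19.97. Endothelial markers summed to 106, 117 and 120.4 and stellate cell markers to 197, 119.6 and 156. By its most abundant unigene, each of the 5 B cell markers was lower at 15 psu than at 0 and 5 psu. Of the 6 T cell markers, 4 were lower at 15 than at 0 psu and 2 higher, and all 6 were lower at 15 than at 5 psu. At 5 psu, 4 of them were higher and 2 lower than at 0 psu. The bile duct sum was carried by EPCAM (c112777_g1) at 43.1 in freshwater, 58.7 at 5 psu and 10.3 at 15 psu, whereas both keratin 19 unigenes were lowest at 5 psu. The macrophage sum was carried by the C1q chains and CD68, and 8 of the 9 macrophage markers were lower at 5 than at 0 psu. The scavenger receptor CD163 was among these, at 62.5 in freshwater, 27.9 at 5 psu and 37.6 at 15 psu in its most abundant unigene (c124071_g2).

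**Figure D1:**
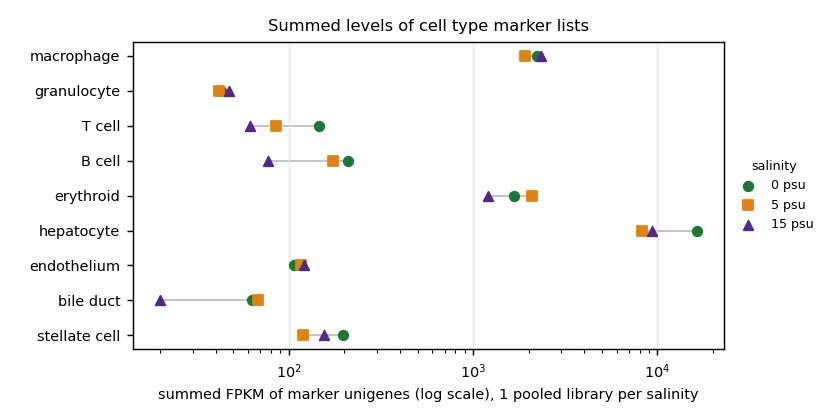
Summed FPKM of the unigenes of each cell type marker list on a log scale, 1 point per pooled library. T cell markers went from 147 at 0 psu to 61.5 at 15 psu and B cell markers from 208 to 77.0, while macrophage markers lay between 1916 and 2330. Much of the T cell difference lay in CD3E, and most of the B cell sum was immunoglobulin J chain.

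Of the 517 unigenes, 60 were listed at 0 in all libraries and 333 were above 0 in all libraries. A further 74 were above 0 in a single library, 25 of them in freshwater, 35 at 5 psu and 14 at 15 psu. Over all unigenes, 102765 were above 0 in freshwater, 119996 at 5 psu and 102228 at 15 psu. The share of all unigenes above 0 in a single library was not counted, so these 74 are not a result about this group. FPKM reached 1 in some library for 398, 5 for 167 and 10 for 96. Between 5 and 0 psu, 123 of 367 members (33.5%) differed 2-fold, 54 higher and 69 lower at 5 psu. Among all unigenes with a match in the same genera the share was 29.9%, made up of 16% higher and 13.9% lower, and among all unigenes it was 65.5%. Between 15 and 0 psu, 109 of 350 members (31.1%) differed, 41 higher and 68 lower at 15 psu, against 29.6% for the same genera (13.6% higher, 16% lower) and 64% for all unigenes. Between 15 and 5 psu, 122 of 351 members (34.8%) differed, 56 higher and 66 lower at 15 psu, against 30.5% (13% higher, 17.5% lower) and 65.5%. The members as a whole therefore differed about as often as other unigenes of the same genera, and their count is not a result about this group of genes.

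Many of these differences involved a library listed at 0 (66, 50 and 57 of them in the same order). Over members above 0 in both libraries, 57 of 301, 59 of 300 and 65 of 294 differed, which is 18.9%, 19.7% and 22.1%. The shares for the same genera were 14.6%, 14.9% and 15.6%. Over the 212 members reaching an FPKM of 1 in each library, 13 differed between 5 and 0 psu, 18 between 15 and 0 psu and 20 between 15 and 5 psu, or 6.13%, 8.49% and 9.43%, and the shares for the same genera were 5.61%, 6.55% and 6.55%. By direction, 6 of the 13 were higher and 7 lower (2.86% and 2.76% for the same genera), 5 of the 18 higher and 13 lower (3.15% and 3.4%), and 9 of the 20 higher and 11 lower (3.03% and 3.52%). The median log2 fold change of members was 0.01, -0.09 and -0.14, and that of unigenes of the same genera 0.08, 0.01 and -0.06. Grouped by level, the shares of members lay above those of the same genera in some bins and below in others.

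**Figure D2:**
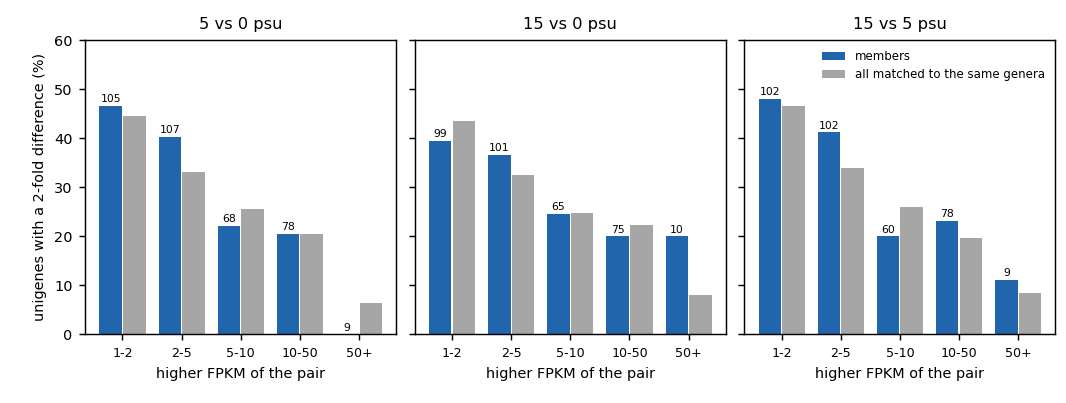
Share of unigenes with a 2-fold difference (percent) against the higher FPKM of the libraries compared, for members (blue, with the number of members above each bar) and for all unigenes matched to the same genera (grey). Both shares are largest at FPKM of 1 to 2 (46.7% of members between 5 and 0 psu) and small at high FPKM.

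Of the 212 members reaching an FPKM of 1 in each library, 90 (42.5%) were lowest at 15 psu, 58 (27.4%) in freshwater and 63 (29.7%) at 5 psu. For the 14009 unigenes of the same genera these shares were 34.3%, 38.6% and 26.6%. A 2-fold difference in some comparison was met by 34 of the 212, and 15 of those 34 (44.1%) were lowest at 15 psu, 7 (20.6%) in freshwater and 12 (35.3%) at 5 psu. Among the 1694 unigenes of the same genera that met it, the shares were 37.1%, 32.6% and 30.2%. The plot of these 34 members shows the chemokines CXCL13, CXCL11 and CCL13-like and the interferon-induced proteins other than GTPases with their lowest point at 15 psu, and CXCL14 and both SOCS proteins with their highest point there.

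**Figure D3:**
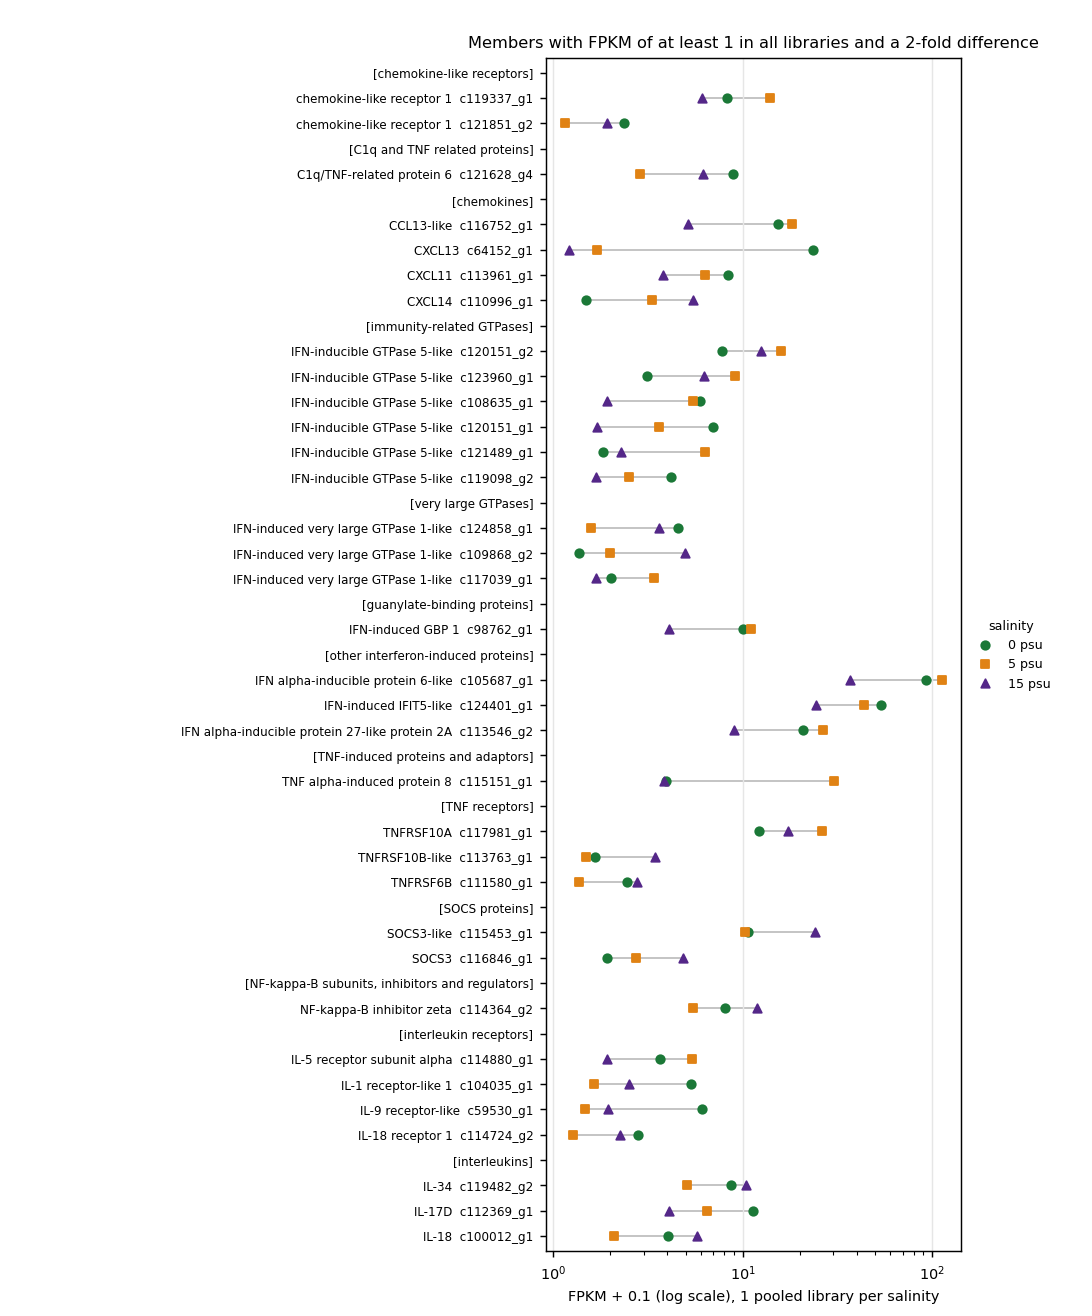
FPKM (plus 0.1, log scale) of the 34 members that reached an FPKM of 1 in each library and had a 2-fold difference in some comparison, grouped by family, 1 point per pooled library. CXCL13 spans the widest range, from 23.6 at 0 psu to 1.11 at 15 psu, and TNF alpha-induced protein 8 stands out at 5 psu with 30.1.

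Among the ligands, chemokines were more often 2-fold lower than higher in saltwater. Their 23 unigenes had a summed FPKM of 274 in freshwater, 216 at 5 psu and 177 at 15 psu. Most of the difference between 0 and 5 psu came from CXCL13 c64152_g1 and CCL3-like c163466_g1, and without them the sums were 228 in freshwater, 215 at 5 psu and 176 at 15 psu. Between 15 and 0 psu, 8 of 21 were 2-fold lower at 15 psu and 2 were 2-fold higher, where 16% and 13.6% of unigenes of the same genera were. Between 5 and 0 psu, 5 of 22 were lower and 2 higher (13.9% and 16% of the same genera), and between 15 and 5 psu 5 of 20 were lower and 3 higher (17.5% and 13%). Of the 11 reaching an FPKM of 1 in each library, 6 were in the order 0 over 5 over 15 psu and 3 in the reverse order, as were 13.8% and 19.5% of the same genera.

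The largest difference among chemokines above 0 in all libraries was that of CXCL13 (c64152_g1), the attractant that draws B cells into lymphoid follicles, with FPKM of 23.6 in freshwater, 1.59 at 5 psu and 1.11 at 15 psu. It was high in the freshwater library only, while both saltwater libraries were close to each other, and the log2 fold changes were -3.81 at 5 psu and -4.29 at 15 psu. A second CXCL13 unigene, c99337_g2, matched to Alligator, had 1.51 in freshwater, 0.61 at 5 psu and 0 at 15 psu. In both unigenes the freshwater library was highest. The receptor for CXCL13, CXCR5, was at 1.44 in freshwater, 1.13 at 5 psu and 1.54 at 15 psu (c104612_g1, looked up after its values were seen), so it did not differ 2-fold. The B cell markers CD79A and CD79B were at 12.04 in freshwater, 9.55 at 5 psu and 4.6 at 15 psu and at 12.4 in freshwater, 8.81 at 5 psu and 5.61 at 15 psu. Their level at 5 psu was nearer to that at 0 psu than that of CXCL13 was, and their part in the CXCL13 difference was not tested.

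CXCL11 (c113961_g1), an interferon-gamma-induced attractant of activated T cells, had FPKM of 8.26 in freshwater, 6.26 at 5 psu and 3.7 at 15 psu, a log2 fold change of -1.14 between 15 and 0 psu. CXCL10-like (c119625_g1), which acts on the same receptor as CXCL11, was at 49.2 in freshwater, 47.4 at 5 psu and 42.9 at 15 psu. The order of the libraries was the same for both ligands, but CXCL10-like differed by less than 2-fold. A second CXCL10-like unigene, c112192_g1, was low, at 1.34 in freshwater, 0.37 at 5 psu and 1.02 at 15 psu.

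CCL13-like (c116752_g1), of the monocyte attractant group, had FPKM of 15.3 in freshwater, 18.01 at 5 psu and 5.07 at 15 psu. It was similar at 0 and 5 psu and lower at 15 psu, and the log2 fold changes were -1.57 against 0 psu and -1.81 against 5 psu. CCL22-like (c105352_g1), a ligand of CCR4, followed the same shape at 2.12 in freshwater, 2.57 at 5 psu and 0.45 at 15 psu. CCL20-like (c98983_g1), a ligand of CCR6 that draws dendritic cells and lymphocytes, was at 3.66 in freshwater, 2.28 at 5 psu and 0.87 at 15 psu, and CCL19 (c118458_g1), a ligand of CCR7, at 1.79 in freshwater, 1.11 at 5 psu and 0.54 at 15 psu. For each of these 3 the 15 psu library was lowest and below an FPKM of 1, where single values rest on few fragments.

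CCL5-like (c107584_g1), an attractant of T cells and monocytes, had FPKM of 5.04 in freshwater, 3.69 at 5 psu and 2.56 at 15 psu, just under 2-fold lower at 15 than at 0 psu. A CCL4 homolog from the same assembly component, c107584_g3, was at 2.75 in freshwater, 2.01 at 5 psu and 1.45 at 15 psu. The third unigene of that component, CCL4-like c107584_g2, ran the other way at 1.25 in freshwater, 1.72 at 5 psu and 1.82 at 15 psu. Reads of such related copies may have been divided between them, so their separate values are uncertain. CCL3-like was spread over 3 named unigenes. The highest, c119103_g2, for which the KEGG annotation gives other CC chemokines, was at 18.4 in freshwater, 9.34 at 5 psu and 12.2 at 15 psu. The unigene c163466_g1 was listed at 22.02 at 0 psu and at 0 in both saltwater libraries, and c33941_g1 was at 0.67 in freshwater, 1.26 at 5 psu and 3.12 at 15 psu. The 3 CCL3-like unigenes thus pointed in different directions between libraries.

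Chemokines that were higher in saltwater were few. CXCL14 (c110996_g1), a chemokine made by epithelia, had FPKM of 1.39 in freshwater, 3.22 at 5 psu and 5.39 at 15 psu, higher at each step of salinity and with a log2 fold change of 1.88 between 15 and 0 psu. CCL3-like c33941_g1 was the other one 2-fold higher at 15 than at 0 psu. CCL13-like c8291_g1, named CCL1 in the KEGG annotation, was listed at 3.59 at 5 psu and at 0 in the other libraries.

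The most abundant chemokines differed little. Interleukin-8-like (c114589_g1), to which the KEGG annotation gives the name of the related neutrophil attractants of the GRO group, was the highest of all at 96.3 in freshwater, 93.3 at 5 psu and 77.2 at 15 psu. CCL21c-like (c106871_g1), which guides CCR7-bearing cells, was at 13.9 in freshwater, 13.9 at 5 psu and 14.2 at 15 psu, level across the libraries. Of the less abundant ones, the unigene matched to interleukin-8 itself (c113331_g1), the neutrophil attractant CXCL8, was at 1.01 in freshwater, 1.97 at 5 psu and 0.89 at 15 psu, the mucosal chemokine CCL28 (c113750_g1) at 2.66 in freshwater, 0.56 at 5 psu and 1.75 at 15 psu and a second CCL20-like unigene (c6162_g1) at 1.67 in freshwater, 1.17 at 5 psu and 0.91 at 15 psu. The first was highest at 5 psu and the other 2 at 0 psu.

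**Figure D4:**
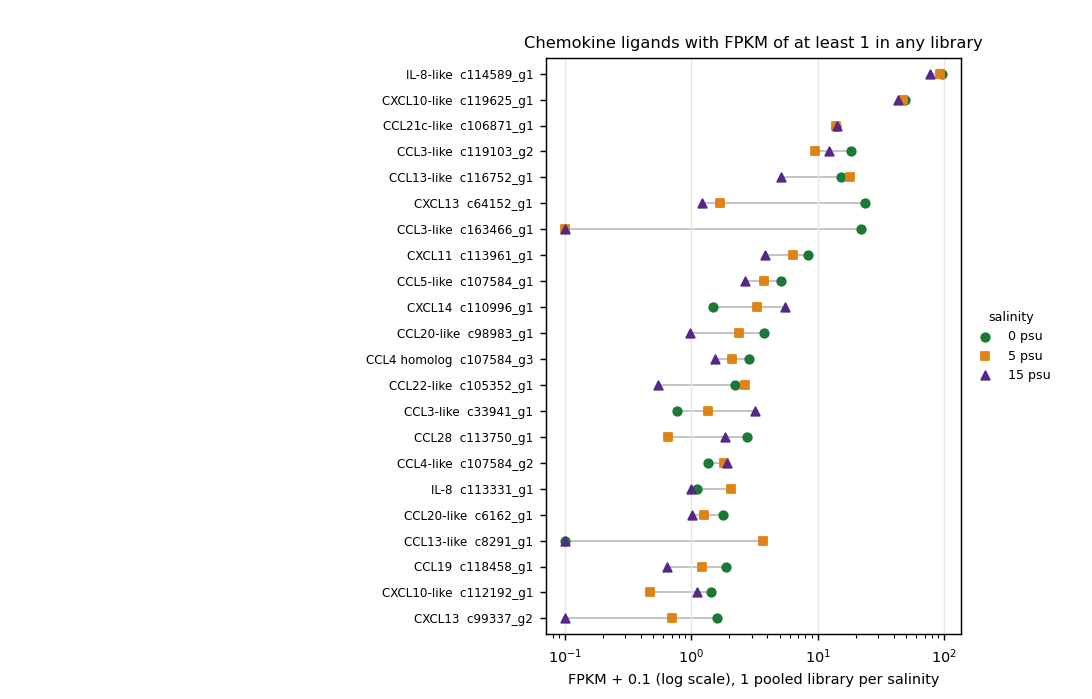
FPKM (plus 0.1, log scale) of the 22 chemokine ligands with FPKM of at least 1 in some library, ordered by mean level, 1 point per pooled library. Points at 0.1 are unigenes listed at 0. Interleukin-8-like and CXCL10-like, the highest, keep their 3 points together, and CXCL13 shows the widest spread among chemokines above 0 in all libraries.

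Interleukins were low in liver: 13 of 16 unigenes reached an FPKM of 1 and 2 reached 10. Between 15 and 0 psu 3 of 13 were 2-fold higher and 2 lower (13.6% and 16% of the same genera), between 5 and 0 psu 1 of 10 was lower and none higher (13.9% and 16%), and between 15 and 5 psu 5 of 12 were higher and none lower (13% and 17.5%). Interleukin-17D (c112369_g1), the highest in freshwater, had FPKM of 11.2 in freshwater, 6.38 at 5 psu and 3.99 at 15 psu, a log2 fold change of -1.47 between 15 and 0 psu. A second unigene, interleukin-17D-like c96802_g1, was at 2.06 in freshwater, 0.57 at 5 psu and 0.97 at 15 psu. Both unigenes were highest in freshwater.

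Interleukin-34 (c119482_g2), the second ligand of the macrophage colony-stimulating factor receptor, was at 8.55 in freshwater, 4.95 at 5 psu and 10.3 at 15 psu. Interleukin-18 (c100012_g1), which caspase-1 activates and which stimulates interferon-gamma production, was at 3.95 in freshwater, 2 at 5 psu and 5.64 at 15 psu. Both had their lowest value at 5 psu and their highest at 15 psu, and the log2 fold changes were 1.04 and 1.45 between 15 and 5 psu. Their receptors had the 5 psu library lowest as well. The macrophage colony-stimulating factor receptor (c124009_g2) was at 20.6 in freshwater, 13.2 at 5 psu and 19.7 at 15 psu, less than 2-fold apart, and interleukin-18 receptor 1 (c114724_g2) at 2.69 in freshwater, 1.17 at 5 psu and 2.15 at 15 psu.

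Interleukin-1 beta (c109817_g1), a central inflammatory cytokine of macrophages, had FPKM of 0.75 in freshwater, 1.16 at 5 psu and 2.8 at 15 psu, and the log2 fold changes were 1.77 against 0 psu and 1.2 against 5 psu. Interleukin-1 beta-like c73255_g1 was at 0.51 in freshwater, 0.77 at 5 psu and 1.07 at 15 psu. Both were in the order 0 under 5 under 15 psu, at low levels throughout. Interleukin-17C was carried by 2 unigenes listed at 0 in the other libraries and at 2.90 (c14900_g1) and 1.62 (c1802_g1) at 15 psu. The remaining interleukins differed by less than 2-fold. Pro-interleukin-16 (c114191_g1), a ligand of CD4, was at 6.98 in freshwater, 7.17 at 5 psu and 5.18 at 15 psu, and interleukin-7 (c107428_g1) and interleukin-15 (c117577_g6), which keep lymphocytes alive, were at 1.22 in freshwater, 2.21 at 5 psu and 1.7 at 15 psu and at 2.29 in freshwater, 2.2 at 5 psu and 1.71 at 15 psu. The beta subunit of interleukin-27 (c123242_g1) was at 2.15 in freshwater, 3.57 at 5 psu and 2.64 at 15 psu.

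Interferons themselves were hardly detected. Interferon gamma (c44392_g1), made by T and natural killer cells, was at 1.56 at 0 psu and 0.58 at 5 psu and was listed at 0 at 15 psu. An interferon epsilon match (c147855_g1) was listed at 3.52 at 5 psu and at 0 elsewhere. Of the 6 interferon unigenes, 2 were listed at 0 in all libraries and none was above 0 at 15 psu. The T cell markers differed in their order: CD3E (c124291_g1) was at 62.01 in freshwater, 25.6 at 5 psu and 24 at 15 psu and CD8A (c124489_g1) at 13.8 in freshwater, 10.9 at 5 psu and 3.65 at 15 psu, while CD4 (c89125_g1) was lowest in freshwater, at 5.92 in freshwater, 8.01 at 5 psu and 7.4 at 15 psu. Their part in the interferon gamma values was not tested.

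The ligands of the tumor necrosis factor family were steady. Their summed FPKM was 58.6, 57.9 and 57.0. Of the 6 reaching an FPKM of 1 in each library none differed 2-fold (5.61% to 6.55% of the same genera). TNFSF10 (c105030_g1), the death receptor ligand TRAIL, was at 21.2 in freshwater, 20.8 at 5 psu and 19.8 at 15 psu, a TNFSF10-like unigene (c114656_g1) at 15.3 in freshwater, 15.4 at 5 psu and 15.4 at 15 psu, and TNFSF12 (c101376_g1), also called TWEAK, at 12.7 in freshwater, 12.5 at 5 psu and 14.3 at 15 psu. Tumor necrosis factor itself was low, at 0.96 in freshwater, 1.6 at 5 psu and 0.83 at 15 psu in c71043_g1 and 1.03 in freshwater, 0.58 at 5 psu and 0.28 at 15 psu in c19925_g1. The second of these was 2-fold lower at 15 than at 0 psu at values near the filter. TNFSF6 (c161668_g1), the Fas ligand, was listed at 1.38 at 5 psu and at 0 elsewhere.

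Macrophage colony-stimulating factor 1 (c123239_g1), which keeps macrophages alive, was at 11.6 in freshwater, 12.6 at 5 psu and 15.9 at 15 psu, and a receptor subunit for the granulocyte-macrophage factor (c116918_g1) was at 24.6 in freshwater, 26.2 at 5 psu and 26.8 at 15 psu. None of the 4 unigenes of this family differed 2-fold in any comparison (5.61% to 6.55% of the same genera).

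Among receptors, those for chemokines were mostly lowest at 15 psu, by small amounts. Of the 18 reaching an FPKM of 1 in each library, 11 were lowest at 15 psu and 11 highest at 5 psu. None differed 2-fold (5.61% to 6.55% of the same genera). The share of unigenes of the same genera lowest at 15 psu was 34.3%, and the share highest at 5 psu was 39.5%. CXCR2-like (c117255_g1), a receptor for interleukin-8 on neutrophils, was the highest at 20.5 in freshwater, 24.5 at 5 psu and 17.9 at 15 psu. CCR7 (c119781_g2), which leads lymphocytes and dendritic cells to lymphoid tissue, was at 8.11 in freshwater, 7.82 at 5 psu and 4.17 at 15 psu, a log2 fold change of -0.94 between 15 and 0 psu, just inside 2-fold. CXCR4 (c108972_g1), the receptor for CXCL12, was at 8.13 in freshwater, 8.35 at 5 psu and 9.93 at 15 psu, highest at 15 psu.

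The atypical chemokine receptors take up chemokines without the usual signalling. Unigenes matched to ACKR4, which removes CCR7 ligands, were c112973_g1 at 11.5 in freshwater, 6.57 at 5 psu and 6.44 at 15 psu, c112330_g2 at 7.4 in freshwater, 8.77 at 5 psu and 6.86 at 15 psu and c122162_g2 at 7.51 in freshwater, 7.65 at 5 psu and 5.89 at 15 psu. The first was highest in freshwater, and none differed 2-fold. Of these, c122162_g2 alone had a Swissprot match and a KEGG name of this receptor (CCRL1). The KEGG names of c112973_g1 were those of other proteins, so its place under ACKR4 is uncertain. ACKR2 (c117630_g1) was at 5.6 in freshwater, 5.81 at 5 psu and 7.27 at 15 psu and ACKR3 (c122517_g2) at 6 in freshwater, 6.4 at 5 psu and 5.22 at 15 psu. CCR8-like c128643_g1 was listed at 6.37 at 0 psu and at 0 in saltwater.

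Chemokine-like receptor 1, the receptor for chemerin, was carried by several unigenes that disagreed. The main one, c119337_g1, was at 8.15 in freshwater, 13.8 at 5 psu and 6.01 at 15 psu, with a log2 fold change of -1.18 between 15 and 5 psu. Unigene c115456_g2 was at 3.01 in freshwater, 5.43 at 5 psu and 4.68 at 15 psu and c121851_g2 at 2.26 in freshwater, 1.05 at 5 psu and 1.83 at 15 psu. The first 2 were highest at 5 psu and the last was lowest there. Unigenes c202326_g1 and c125996_g1 were listed in 1 library each, at 17.3 at 5 psu and 10.8 at 15 psu. Of 8 tested unigenes, 1 was 2-fold higher and 3 lower at 5 than at 0 psu (16% and 13.9% of the same genera). Between 15 and 0 psu 1 of 9 was higher and none lower (13.6% and 16%). Between 15 and 5 psu 5 of 11 were higher and 3 lower (13% and 17.5%).

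Interleukin receptors formed the largest family, with 71 unigenes and a summed FPKM of 407, 396 and 404. Of the 29 reaching an FPKM of 1 in each library, 3 were 2-fold lower at 5 than at 0 psu (2.76% of the same genera). At 15 psu 2 were lower than at 0 psu and 1 lower than at 5 psu (3.4% and 3.52%). None was 2-fold higher in any comparison (2.86% to 3.15%). Over all tested unigenes of the family, 7 of 48 were higher and 10 lower at 5 than at 0 psu (16% and 13.9%). Between 15 and 0 psu 3 of 44 were higher and 6 lower (13.6% and 16%), and between 15 and 5 psu 3 of 45 were higher and 6 lower (13% and 17.5%). The 2 chains that carry the interleukin-6 signal into hepatocytes were among the steady ones. Interleukin-6 receptor alpha (c121020_g1) was at 63.8 in freshwater, 62.9 at 5 psu and 75.2 at 15 psu and the shared beta chain gp130 (c120248_g1) at 14.7 in freshwater, 14.98 at 5 psu and 15.01 at 15 psu. The largest difference between libraries, for receptor alpha between 15 and 5 psu, was 0.26 on the log2 scale.

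Interleukin-13 receptor alpha-2 (c123680_g1), a decoy receptor, was as abundant, at 66.1 in freshwater, 52.5 at 5 psu and 71.3 at 15 psu. Its partner in name, alpha-1 (c110961_g1), was at 12.6 in freshwater, 9.41 at 5 psu and 17.4 at 15 psu, and the interleukin-4 receptor alpha chain that pairs with alpha-1 was at 19.98 in freshwater, 18.8 at 5 psu and 16.02 at 15 psu (c108780_g1) and 16.1 in freshwater, 16.1 at 5 psu and 18.2 at 15 psu (c108780_g2). None of these differed 2-fold. Interleukin-22 receptor alpha-1 (c121820_g3), through which interleukin-22 acts on epithelial cells and hepatocytes, was at 8.73 in freshwater, 9.63 at 5 psu and 16.04 at 15 psu, a log2 fold change of 0.87 between 15 and 0 psu. The interleukin-20 receptor alpha chain (c115947_g1) was at 8.45 in freshwater, 8.79 at 5 psu and 9.92 at 15 psu and the beta chain (c120439_g3) at 22.1 in freshwater, 15.2 at 5 psu and 22.3 at 15 psu.

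The main receptors of the interleukin-1 family were lowest at 5 psu. Interleukin-1 receptor type 1 (c119025_g1) was at 8.67 in freshwater, 6.19 at 5 psu and 11.4 at 15 psu, its accessory protein (c123801_g3) at 7.65 in freshwater, 6.03 at 5 psu and 7.04 at 15 psu, and interleukin-1 receptor-like 1 (c104035_g1), the interleukin-33 receptor ST2, at 5.23 in freshwater, 1.54 at 5 psu and 2.41 at 15 psu. For ST2 the log2 fold change was -1.70 at 5 psu and -1.09 at 15 psu, so both saltwater libraries were 2-fold below freshwater. A further accessory protein unigene (c147092_g1) was listed at 19.3 at 0 psu and at 0 in saltwater, and 3 unigenes matched to X-linked interleukin-1 receptor accessory protein-like 2 (c126242_g1, c129298_g1 and c191967_g1) were listed at 26.2, 14.5 and 6.78 at 5 psu and at 0 elsewhere.

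Receptors that mark lymphocytes and eosinophils included several of the lower ones. Interleukin-5 receptor alpha (c114880_g1), of eosinophils and B cells, was at 3.57 in freshwater, 5.31 at 5 psu and 1.83 at 15 psu, with a log2 fold change of -1.49 between 15 and 5 psu. Interleukin-7 receptor alpha (c120789_g3), of T cells, was at 7.16 in freshwater, 7.54 at 5 psu and 4.46 at 15 psu, lowest at 15 psu but less than 2-fold apart. Interleukin-9 receptor-like (c59530_g1) was at 5.96 in freshwater, 1.37 at 5 psu and 1.85 at 15 psu, 2-fold lower in both saltwater libraries. The interleukin-10 receptor chains, which pass on an anti-inflammatory signal, were at 6.43 in freshwater, 5.28 at 5 psu and 4.67 at 15 psu (alpha, c116014_g1) and 5.79 in freshwater, 4.4 at 5 psu and 3.99 at 15 psu (beta, c116763_g1). Both were in the order 0 over 5 over 15 psu with differences under 2-fold.

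The interleukin-17 receptor chains, which respond to interleukin-17 cytokines, did not differ 2-fold where they were above 0 in all libraries. Chain A (c123198_g4) was at 9.29 in freshwater, 6.54 at 5 psu and 7.41 at 15 psu, chain C (c118097_g1) at 16.8 in freshwater, 17.7 at 5 psu and 15.8 at 15 psu, chain E (c122554_g1) at 4.28 in freshwater, 4.49 at 5 psu and 5.68 at 15 psu and an E-like unigene (c115436_g1) at 20.9 in freshwater, 19.6 at 5 psu and 28.6 at 15 psu. Interleukin-36 receptor antagonist (c118859_g2), which blocks the interleukin-36 receptor, was at 14.4 in freshwater, 24.9 at 5 psu and 19.4 at 15 psu, highest at 5 psu, at a log2 fold change of 0.78.

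Interferon receptors were close to level. Interferon gamma receptor 1 (c109071_g1) was at 19.2 in freshwater, 19.1 at 5 psu and 20.5 at 15 psu, receptor 2 (c120359_g1) at 14.1 in freshwater, 12.98 at 5 psu and 16.1 at 15 psu and the type I receptor chain 1 (c113572_g1) at 9.92 in freshwater, 10.3 at 5 psu and 9.71 at 15 psu. None of the 4 unigenes differed 2-fold in any comparison (5.61% to 6.55% of the same genera).

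Receptors of the tumor necrosis factor family had a higher sum in saltwater, while their 2-fold differences went both ways. Their 43 unigenes summed to 225 in freshwater, 283 at 5 psu and 286 at 15 psu. Between 5 and 0 psu 6 of 30 were 2-fold higher and 6 lower, and between 15 and 0 psu 7 of 32 were higher and 5 lower, against 16% and 13.9%, and 13.6% and 16%, of the same genera. Of the 16 reaching an FPKM of 1 in each library, none had its highest value in freshwater. This compares with 25.5% of unigenes of the same genera. The unigene TNFRSF5-like c117572_g5, of the CD40 kind, accounted for most of the difference between 0 and 5 psu in the sum, which without it was 179.6 in freshwater, 196 at 5 psu and 207 at 15 psu. It was at 44.96 in freshwater, 87.1 at 5 psu and 79.5 at 15 psu, a log2 fold change of 0.95 at 5 psu and 0.82 at 15 psu, just under 2-fold. The unigene matched to TNFRSF5 itself (c114877_g1), the CD40 receptor of B cells and macrophages, was level at 11.99 in freshwater, 12.2 at 5 psu and 11.7 at 15 psu.

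TNFRSF10A (c117981_g1), a death receptor for TRAIL, was at 12.2 in freshwater, 26.3 at 5 psu and 17.2 at 15 psu, with a log2 fold change of 1.10 at 5 psu and 0.49 at 15 psu. TNFRSF10B-like (c113763_g1), also of the TRAIL receptors, was at 1.56 in freshwater, 1.39 at 5 psu and 3.35 at 15 psu. The first was highest at 5 psu and the second at 15 psu. TNFRSF6B (c111580_g1), a soluble decoy that binds Fas ligand, was at 2.34 in freshwater, 1.27 at 5 psu and 2.66 at 15 psu, lowest at 5 psu. TNFRSF21 (c113529_g1), or death receptor 6, was at 10.2 in freshwater, 9.28 at 5 psu and 16.4 at 15 psu, highest at 15 psu.

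The main receptors for tumor necrosis factor differed less. TNFRSF1A (c103908_g1) was at 46.5 in freshwater, 45.4 at 5 psu and 57.9 at 15 psu and TNFRSF1B (c121448_g1) at 13.4 in freshwater, 16.1 at 5 psu and 16.7 at 15 psu. TNFRSF14 (c123003_g1), the herpesvirus entry mediator, was at 8.15 in freshwater, 9.77 at 5 psu and 7.58 at 15 psu and a TNFRSF14-like unigene (c122432_g1) at 24.1 in freshwater, 28.2 at 5 psu and 32.1 at 15 psu. TNFRSF9 (c114577_g4), a costimulator of T cells, was at 5.27 in freshwater, 7.05 at 5 psu and 6.86 at 15 psu, and TNFRSF11A (c112511_g1), the receptor RANK, at 6.13 in freshwater, 6.24 at 5 psu and 4.93 at 15 psu. All 6 were within 2-fold. TNFRSF27 (c207956_g1) was at 6.49 at 0 psu and 2.18 at 5 psu and was listed at 0 at 15 psu.

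Among the sensors, toll-like receptors were low, and 7 of 43 unigenes had FPKM of at least 1 in all libraries. Of those 7, 6 were highest at 0 psu, where 25.5% of unigenes of the same genera were. None of the 7 differed 2-fold (5.61% to 6.55% of the same genera). Over all toll-like receptor unigenes that passed the filter, 5 of 22 were 2-fold higher and 9 lower at 5 than at 0 psu, 7 of these 14 with a library listed at 0, against 16% and 13.9% of the same genera. Between 15 and 0 psu 3 of 20 were higher and 8 lower, 6 of these 11 with a library listed at 0, against 13.6% and 16%. A unigene matched to toll-like receptor 2 (c123705_g1), a sensor of bacterial lipoproteins, was the highest at 9.9 in freshwater, 5.08 at 5 psu and 8.57 at 15 psu, a log2 fold change of -0.95 at 5 psu. The KEGG annotation gives it another name, ITGA10. Of the unigenes with the KEGG name TLR2, the most abundant were level (looked up after their values were seen). They were c120845_g1 at 4.75 in freshwater, 4.65 at 5 psu and 4.45 at 15 psu and c120845_g2 at 2.93, 2.56 and 2.54 in the same order. Toll-like receptor 1 (c113594_g1), the partner of toll-like receptor 2, was at 3.39 in freshwater, 2.63 at 5 psu and 2.7 at 15 psu, and toll-like receptor 5 (c121358_g2), the flagellin sensor, at 3.29 in freshwater, 3.92 at 5 psu and 3.6 at 15 psu. Toll-like receptor 4 (c95527_g1), the lipopolysaccharide sensor, stayed below 1, at 0.57 in freshwater, 0.93 at 5 psu and 0.62 at 15 psu.

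Of the receptors for nucleic acids, toll-like receptor 3 (c112053_g1), for double-stranded RNA, was at 2.09 in freshwater, 1.7 at 5 psu and 1.3 at 15 psu and toll-like receptor 8 (c95324_g1), for single-stranded RNA, at 4.37 in freshwater, 3.31 at 5 psu and 3.91 at 15 psu. Toll-like receptor 7 (c200626_g1), also for single-stranded RNA, was at 4.32 in freshwater, 0.46 at 5 psu and 1.19 at 15 psu. The first 2 were within 2-fold, and the last was lower in both saltwater libraries. Other unigenes of this receptor were looked up after their values were seen. Of these, c53019_g1 and c113849_g3 were listed at 3.14 and 2.76 at 5 psu and at 0 elsewhere. Unigene c25651_g2 was at 1.06 in freshwater, 0.29 at 5 psu and 0.18 at 15 psu, lower in saltwater like c200626_g1. Reads of the gene may have been divided between unigenes. Toll-like receptor 10 (c2124_g1) was listed at 14.5 at 0 psu and at 0 in saltwater, toll-like receptor 13 (c57436_g1) at 3.31 at 5 psu only, a second toll-like receptor 8 unigene (c197419_g1) at 6.05 at 0 psu only, and a further toll-like receptor 2 unigene (c191564_g1) at 6.0 at 15 psu only.

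Macrophage mannose receptor 1 (c115708_g1), a scavenger receptor of macrophages and sinusoidal endothelium that binds sugars of microbes, was at 30.2 in freshwater, 35.5 at 5 psu and 45.5 at 15 psu. It was higher at each step of salinity, by 0.59 on the log2 scale between 15 and 0 psu. A mannose receptor 1-like unigene (c118730_g6) was at 2.86 in freshwater, 5.34 at 5 psu and 5.5 at 15 psu, and c114504_g3 and c114504_g1, of 1 component, at 6.67 in freshwater, 8.03 at 5 psu and 7.48 at 15 psu and 6.64 in freshwater, 5.11 at 5 psu and 6.32 at 15 psu. None of the 7 reaching an FPKM of 1 in each library differed 2-fold (5.61% to 6.55% of the same genera). Of the 9 macrophage markers, 3 were higher and 6 lower at 15 than at 0 psu by their most abundant unigene, with CD68 (c98125_g2) at 314 in freshwater, 262 at 5 psu and 325 at 15 psu, and their part in these values was not tested. The NLR family was represented by NLRX1 (c123949_g1), a regulator at mitochondria, at 2.37 in freshwater, 2.33 at 5 psu and 1.98 at 15 psu. Of the 4 unigenes matched to the stimulator of interferon genes, the adaptor STING, 3 were listed at 0 in all libraries and c183928_g1 at 4.64 at 5 psu only.

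In signalling, the NF-kappa-B family was level with 1 exception. The inhibitors NF-kappa-B inhibitor beta (c123579_g1) and alpha (c120142_g1) were at 68.2 in freshwater, 69.6 at 5 psu and 74.4 at 15 psu and at 18.4 in freshwater, 19.3 at 5 psu and 17.7 at 15 psu. The essential modulator of the kinase complex (c116732_g1) was at 24.1 in freshwater, 27.4 at 5 psu and 21.2 at 15 psu, and the precursor subunits p105 (c115253_g2) and p100 (c105142_g1) were at 5.03 in freshwater, 5.23 at 5 psu and 4.6 at 15 psu and at 6.23 in freshwater, 5.76 at 5 psu and 5.06 at 15 psu. The exception was NF-kappa-B inhibitor zeta (c114364_g2), a nuclear cofactor that toll-like receptor and interleukin-1 signals induce, at 8 in freshwater, 5.34 at 5 psu and 11.8 at 15 psu. It was lowest at 5 psu and highest at 15 psu, with a log2 fold change of 1.13 between them and 0.55 between 15 and 0 psu.

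The interferon regulatory factors and their binding proteins, 15 unigenes reaching an FPKM of 1 in each library, held no 2-fold difference in any comparison. Among unigenes of the same genera 5.61%, 6.55% and 6.55% differed, so none of 15 is not a result about this family. Their summed FPKM was 210.6, 194 and 178, and 9 of the 15 were lowest at 15 psu, as were 34.3% of unigenes of the same genera. Factor 2 (c88944_g1), a repressor of interferon genes, was at 33.5 in freshwater, 37.1 at 5 psu and 25.4 at 15 psu, factor 1 (c104419_g1), an activator, at 17.9 in freshwater, 19.04 at 5 psu and 14.2 at 15 psu and factor 3 (c117750_g2), which turns on type I interferon genes, at 22.8 in freshwater, 23.3 at 5 psu and 21.6 at 15 psu. Factor 8 (c120973_g2), of macrophages and B cells, was at 10.3 in freshwater, 10.3 at 5 psu and 7.91 at 15 psu. Of the interleukin receptor-associated kinases, which act below toll-like receptors, kinase 1 (c118348_g1) was at 4.37 in freshwater, 6.52 at 5 psu and 6.18 at 15 psu.

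SOCS proteins, which are induced by cytokines and shut down their receptors, leaned toward higher values at 15 psu. Their 11 unigenes summed to 44.6, 46.1 and 65.7, and 6 of the 9 reaching an FPKM of 1 in each library were highest at 15 psu, where 34.4% of unigenes of the same genera were. SOCS3-like (c115453_g1), the inhibitor of the interleukin-6 receptor complex, was at 10.6 in freshwater, 10.2 at 5 psu and 24.02 at 15 psu, and SOCS3 (c116846_g1) at 1.83 in freshwater, 2.63 at 5 psu and 4.71 at 15 psu. Between 15 and 0 psu their log2 fold changes were 1.17 and 1.32, and these were the only 2 of the 11 SOCS unigenes that differed 2-fold. They were 2 of the 9 reaching an FPKM of 1 in each library (3.15% higher for the same genera). Another SOCS3 unigene of the component of c116846_g1, matched outside the 5 genera, was within 2-fold. This was c116846_g2, at 4.95 in freshwater, 3.1 at 5 psu and 5.35 at 15 psu. SOCS7 c87021_g1, also matched outside them, was 2-fold lower at 15 than at 0 psu. For SOCS3-like the 0 and 5 psu libraries were alike, and it made up most of the higher family sum at 15 psu.

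SOCS1 (c80252_g1), the inhibitor of interferon signalling, was at 7.81 in freshwater, 6.82 at 5 psu and 11.9 at 15 psu, also highest at 15 psu but within 2-fold. The others were level: SOCS5-like (c120122_g1) was at 7.98 in freshwater, 8.8 at 5 psu and 7.39 at 15 psu, SOCS7 (c123786_g1) at 5.97 in freshwater, 5.82 at 5 psu and 6.18 at 15 psu and SOCS4 (c111776_g1) at 4.17 in freshwater, 4.14 at 5 psu and 4.99 at 15 psu. SOCS6 (c103993_g1) was at 2 in freshwater, 1.88 at 5 psu and 1.48 at 15 psu and SOCS2-like (c107244_g1), which restrains growth hormone signalling, at 1.65 in freshwater, 1.59 at 5 psu and 2.09 at 15 psu.

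Serum amyloid A (c106996_g1), an acute phase protein that interleukin-6 and interleukin-1 induce in liver, was at 39.6 in freshwater, 78.01 at 5 psu and 706 at 15 psu and so shared with SOCS3 and interleukin-1 beta its highest value at 15 psu. Of the 7 acute phase genes found, by their most abundant unigene, 3 were higher and 4 lower at 15 than at 0 psu, and serum amyloid A alone differed 2-fold. Among the 3 higher was haptoglobin, taken from c105324_g1, whose protein description is that of another protein, dihydroorotate dehydrogenase. It was at 1688 in freshwater, 1366 at 5 psu and 2004 at 15 psu. Alpha-1-acid glycoprotein (c106657_g1) was at 1286 in freshwater, 989 at 5 psu and 1551 at 15 psu, also highest at 15 psu, and fibrinogen alpha (c96709_g1) at 2130.5 in freshwater, 1535 at 5 psu and 1667 at 15 psu and hepcidin (c105111_g1), the iron hormone, at 580.3 in freshwater, 369.7 at 5 psu and 392 at 15 psu, both highest in freshwater. By their most abundant unigene, 4 of the 5 granulocyte markers found were higher and 1 lower at 15 than at 0 psu. Of 7 tested granulocyte unigenes, 2 of the same component were 2-fold higher and 1 was lower (13.6% and 16% of the same genera). The 2-fold higher ones were receptors for the granulocyte colony-stimulating factor. They were at 1.5 in freshwater, 2.24 at 5 psu and 5.81 at 15 psu (c124010_g1) and 1.08, 1.84 and 5.15 in the same order (c124010_g2). The oxidase subunit NCF4 (c111817_g1) was lowest at 15 psu, at 3.55 in freshwater, 4.59 at 5 psu and 2.53 at 15 psu. Myeloperoxidase-like c62784_g1 was at 7.83 at 0 psu, 2.2 at 5 psu and listed at 0 at 15 psu. The more abundant myeloperoxidase-like c121046_g1 was at 7.07 in freshwater, 4.46 at 5 psu and 7.36 at 15 psu. The part of granulocytes in the SOCS3, interleukin-1 beta and NF-kappa-B inhibitor zeta values was not tested.

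A list of 43 pathway genes held the JAK kinases, STAT proteins, adaptors, cytosolic sensors, antiviral effectors and acute phase targets. Unigenes of Mx1, STING and the RNA-dependent protein kinase EIF2AK2 were already among the chosen ones. Of the 43 genes, 37 were found outside the chosen unigenes, in 53 unigenes. Between 5 and 0 psu 4 of 49 were 2-fold higher and 1 lower (16% and 13.9% of the same genera). Between 15 and 0 psu 5 of 46 were higher and 2 lower (13.6% and 16%). Between 15 and 5 psu 5 of 50 were higher and 5 lower (13% and 17.5%). Most of the pathway was thus within 2-fold, as were most unigenes of the same genera. STAT3 (c122992_g2), which carries the interleukin-6 signal, was at 41.5 in freshwater, 40.8 at 5 psu and 40.7 at 15 psu. The ribonuclease ZC3H12A (c120764_g1), which degrades the mRNA of inflammatory cytokines, was at 6.62 in freshwater, 6.21 at 5 psu and 16.6 at 15 psu, and the kinase RIPK1 (c118289_g1), of the tumor necrosis factor receptor complex, at 3.83 in freshwater, 4.8 at 5 psu and 11.4 at 15 psu. Both were 2-fold higher at 15 psu than at either other salinity. The adaptor MYD88 (c123804_g1) of toll-like receptors was level at 5.25 in freshwater, 5.51 at 5 psu and 5.8 at 15 psu, and the inflammasome adaptor ASC (PYCARD) had several unigenes whose order of libraries varied, among them c114506_g1 at 4.12 in freshwater, 3.16 at 5 psu and 1.81 at 15 psu and c117665_g1 at 3.27 in freshwater, 3.44 at 5 psu and 3.59 at 15 psu.

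Among the products of interferon signalling, several abundant ones were lowest at 15 psu. Interferon-induced proteins, with Mx1 but without the guanylate-binding, immunity-related and very large GTPases, held 13 unigenes reaching an FPKM of 1 in each library. Of these, 3 were 2-fold lower at 15 than at 0 psu and 2 lower at 15 than at 5 psu. None differed between 5 and 0 psu (5.61% of the same genera). The shares lower among the same genera were 3.4% and 3.52%. Over all tested unigenes of the family, 3 of 18 were higher and 3 lower at 15 than at 0 psu (13.6% and 16% of the same genera). At 15 against 5 psu 3 of 17 were higher and 3 lower (13% and 17.5%). Interferon alpha-inducible protein 6-like (c105687_g1), a small membrane protein induced by type I interferon, was at 92.5 in freshwater, 113 at 5 psu and 36.9 at 15 psu. The log2 fold change was -1.32 against 0 psu and -1.61 against 5 psu. Protein 27-like 2A (c113546_g2), of the same protein family, was at 20.8 in freshwater, 26.6 at 5 psu and 8.95 at 15 psu, with values of -1.21 and -1.56. In both, the 0 and 5 psu libraries were near each other and the 15 psu library was apart. A low unigene also matched to protein 27-like 2A, c60203_g1, ran the other way at 0.48 in freshwater, 0.37 at 5 psu and 1.41 at 15 psu. Interferon-induced transmembrane protein 10 (c144532_g1) was listed at 4.05 at 15 psu and at 0 elsewhere.

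IFIT5-like (c124401_g1), which binds foreign RNA, was at 53.3 in freshwater, 43.4 at 5 psu and 24.2 at 15 psu, a log2 fold change of -1.14 between 15 and 0 psu, and the IFIT5 unigene c110752_g1 was at 4.19 in freshwater, 5.02 at 5 psu and 2.82 at 15 psu. The lysosomal thiol reductase GILT (c118781_g1), which unfolds antigens for presentation, was at 91.1 in freshwater, 78.2 at 5 psu and 70.8 at 15 psu. The order was 0 over 5 over 15 psu for IFIT5-like and GILT, with GILT within 2-fold. Against these, protein 27-like 2B-like (c87535_g1) was at 2.81 in freshwater, 0.49 at 5 psu and 11.4 at 15 psu, highest at 15 psu with a log2 fold change of 1.99 against 0 psu, and lowest at 5 psu.

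Of the other antiviral effectors listed, ZC3H12A, given above, was 2-fold higher at 15 psu than at either other salinity. The rest varied less in their most abundant unigenes. The ubiquitin-like protein ISG15 (c113462_g1), a classical interferon target, was at 23.3 in freshwater, 20.7 at 5 psu and 21.1 at 15 psu, and RSAD2 (c123859_g2), or viperin, at 2.76 in freshwater, 2.72 at 5 psu and 1.82 at 15 psu. The Mx1 unigenes were low, and the highest, c117877_g4, was at 2.01 in freshwater, 2.79 at 5 psu and 2.53 at 15 psu. Another with the KEGG name MX1, c107129_g1, was at 0.6 in freshwater, 0.6 at 5 psu and 0.65 at 15 psu. A further unigene matched to Mx1, c120164_g5, was at 1.07 in freshwater, 0.38 at 5 psu and 0.62 at 15 psu, 2-fold lower at 5 than at 0 psu, and c13528_g2 was listed at 1.56 at 5 psu only (these Mx1 unigenes were chosen after their values were seen). Neither c120164_g5 nor c13528_g2 had a Swissprot match, and their KEGG names were those of other proteins. Among named members, the interferon-induced protein IFI35 (c116155_g1) was at 11.2 in freshwater, 13.04 at 5 psu and 10.02 at 15 psu, the exonuclease ISG20-like 2 (c123700_g2) at 7.39 in freshwater, 9.15 at 5 psu and 9.31 at 15 psu and the activator of the RNA-dependent protein kinase (c116555_g9) at 5.42 in freshwater, 4.82 at 5 psu and 5.16 at 15 psu. Among the more abundant products the 2-fold lower values at 15 psu were thus those of IFI6-like, protein 27-like 2A and IFIT5-like, while ISG15 was within 2-fold in every comparison.

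**Figure D5:**
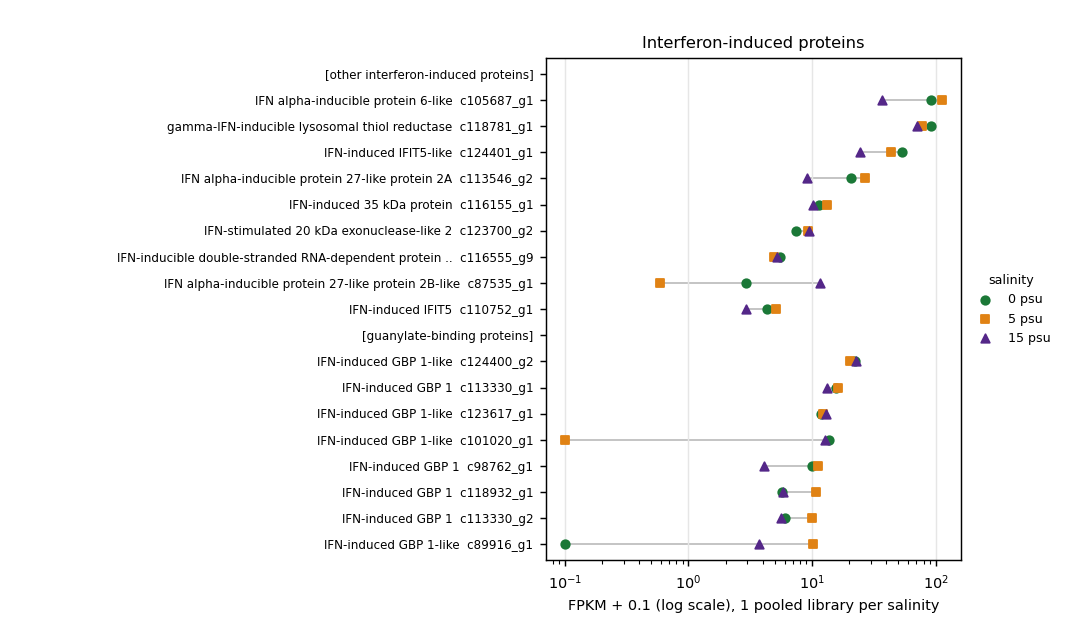
FPKM (plus 0.1, log scale) of named interferon-induced proteins and guanylate-binding proteins, 1 point per pooled library. Points at 0.1 are unigenes listed at 0. IFI6-like, IFIT5-like and protein 27-like 2A have their lowest point at 15 psu (36.9, 24.2 and 8.95). The most abundant guanylate-binding proteins (c124400_g2, c113330_g1 and c123617_g1) keep their points together, and the points of the others lie further apart.

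Guanylate-binding proteins, interferon-induced GTPases that attack vacuoles of intracellular microbes, summed to 89.2, 97.6 and 84.9. Of 6 reaching an FPKM of 1 in each library, c98762_g1 alone differed 2-fold, at 9.91 in freshwater, 11.01 at 5 psu and 3.98 at 15 psu, and the log2 fold changes were -1.29 against 0 psu and -1.45 against 5 psu. The most abundant, c124400_g2, was at 22.4 in freshwater, 20.2 at 5 psu and 22.5 at 15 psu, followed by c113330_g1 at 15.7 in freshwater, 16.04 at 5 psu and 13.2 at 15 psu and c123617_g1 at 11.7 in freshwater, 12.1 at 5 psu and 12.8 at 15 psu. These 3 were level. Unigenes c118932_g1 and c113330_g2 were at 5.58 in freshwater, 10.7 at 5 psu and 5.78 at 15 psu and at 5.92 in freshwater, 9.98 at 5 psu and 5.47 at 15 psu, highest at 5 psu. Unigene c101020_g1 was at 13.7 at 0 psu and 12.8 at 15 psu but listed at 0 at 5 psu, and c89916_g1 was listed at 0 at 0 psu. Of 10 tested unigenes, 2 were 2-fold higher and 1 lower at 5 than at 0 psu (16% and 13.9% of the same genera). Between 15 and 0 psu 2 of 11 were higher and 3 lower (13.6% and 16%). Between 15 and 5 psu 2 of 11 were higher and 4 lower (13% and 17.5%).

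Immunity-related GTPases, matched to interferon-inducible GTPase 5 or, for a few low unigenes, GTPase 1, formed 54 unigenes in 41 components. They share their names, and how alike their sequences are was not measured. Reads may have been divided among copies, so single values are uncertain, and their summed FPKM, 160.2, 157 and 146, differed little. Of the 16 reaching an FPKM of 1 in each library, 3 were 2-fold higher at 5 than at 0 psu (2.86% of the same genera). At 15 psu 3 were lower than at 0 psu and 3 lower than at 5 psu (3.4% and 3.52%). Over all tested unigenes of the family, 9 of 39 were higher and 14 lower at 5 than at 0 psu (16% and 13.9%), 13 of these 23 with a library listed at 0. Between 15 and 0 psu 3 of 34 were higher and 11 lower (13.6% and 16%), and between 15 and 5 psu 7 of 32 were higher and 7 lower (13% and 17.5%). Unigene c120151_g1 was at 6.88 in freshwater, 3.51 at 5 psu and 1.6 at 15 psu, while c120151_g2 of the same component was at 7.65 in freshwater, 15.9 at 5 psu and 12.4 at 15 psu. Within that component the 2 unigenes ran in opposite directions between 0 psu and saltwater. Others lower at 15 psu were c108635_g1 at 5.84 in freshwater, 5.38 at 5 psu and 1.81 at 15 psu and c119098_g2 at 4.1 in freshwater, 2.41 at 5 psu and 1.57 at 15 psu, and others higher at 5 psu were c123960_g1 at 3.03 in freshwater, 8.99 at 5 psu and 6.12 at 15 psu and c121489_g1 at 1.72 in freshwater, 6.22 at 5 psu and 2.18 at 15 psu. The most abundant, c124102_g1, was level at 21.1 in freshwater, 26.4 at 5 psu and 20.8 at 15 psu.

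Very large GTPases, 41 unigenes in 35 components, summed to 43.6, 48.6 and 76.4. The higher sum at 15 psu rested in good part on 2 unigenes listed at 0 elsewhere, c101538_g1 at 19.1 and c541_g1 at 11.7, and without them the 15 psu sum was 45.6. Of 7 reaching an FPKM of 1 in each library, c109868_g2 was at 1.26 in freshwater, 1.89 at 5 psu and 4.86 at 15 psu, c124858_g1 at 4.43 in freshwater, 1.48 at 5 psu and 3.51 at 15 psu and c117039_g1 at 1.92 in freshwater, 3.28 at 5 psu and 1.57 at 15 psu. Each of these 3 had its highest value in a different library. Of 24 tested unigenes, 4 were 2-fold higher and 6 lower at 5 than at 0 psu (16% and 13.9% of the same genera). Between 15 and 0 psu 8 of 26 were higher and 6 lower (13.6% and 16%). Between 15 and 5 psu 13 of 28 were higher and 10 lower (13% and 17.5%). With both libraries above 0, 15 of 20 differed between 15 and 5 psu (15.6%). Levels were low, as 3 of the 41 unigenes reached an FPKM of 5.

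Of the proteins named for induction by tumor necrosis factor, TNF alpha-induced protein 8 (c115151_g1), a regulator of cell death, stood out. Its FPKM was 3.82 in freshwater, 30.1 at 5 psu and 3.76 at 15 psu, a log2 fold change of 2.95 at 5 psu, and the 0 and 15 psu libraries were alike. Its relative, protein 8-like 2 (c124343_g1), was level at 7.56 in freshwater, 7.82 at 5 psu and 6.87 at 15 psu. The tumor necrosis factor-inducible gene 6 protein (c113065_g6), which binds hyaluronan, was at 36.1 in freshwater, 34.97 at 5 psu and 40.01 at 15 psu, and the adaptor TRADD (c121701_g1) at 4.9 in freshwater, 5.02 at 5 psu and 4.11 at 15 psu. C1q and TNF-related protein 6 (c121628_g4), a secreted protein of the adipokine kind, was at 8.75 in freshwater, 2.76 at 5 psu and 6.06 at 15 psu, lowest at 5 psu with a log2 fold change of -1.63.

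Of the 517 members, 407 also had a match in the curated Swissprot database. Those without one included 31 unigenes matched to interleukin-20 receptor alpha of Chelonia mydas, each from a component of its own. They were scattered between libraries: none reached an FPKM of 1 in all of them, 13 were above 0 in 1 library only, and their summed FPKM was 43.3, 38.7 and 12.6. The highest were c149880_g1 at 18.1 and c167441_g1 at 10.9 at 0 psu, c206186_g1 at 16.1 at 5 psu and c137219_g1 at 5.73 at 15 psu, each listed at 0 elsewhere. The unigene of interleukin-20 receptor alpha with a Chrysemys match, c115947_g1, was steady by comparison, as given above.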

How the data were processed

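Poly(A) mRNA from livers of 9 turtles, 3 mixed per salinity, was sequenced as 1 library each at 0, 5 and 15 psu. Reads were trimmed by the authors (SeqPrep, Sickle) and assembled de novo (Trinity), and unigene FPKM to 2 decimals came from RSEM, which with Bowtie is named in the submitters' processing notes. These FPKM were deposited with BLASTX annotation. Versions are not given in the sources used here. RSEM divides reads among similar sequences by estimate, so copies of a gene family share uncertainty. Of the deposited table, 205118 rows were used and 20 lines hold no values here. No per-sample column was left out.

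Members were taken by the annotation rule and sorted into 28 families by name. Families, gene lists and markers were chosen with earlier results of these data known, and the sorting was refined after the names were read. Log2 fold changes used FPKM plus 0.1, and 2-fold differences were counted where FPKM was at least 1 in either library. FPKM are not counts, there is 1 library per salinity, and no test was made. The files hold no fragment counts, and the clean reads the study states for each library were not used here. Where the mean FPKM of a pair lay from 0.3 to 1, log2 ratios gathered at -0.375, -0.025 and 0.325 for 5 against 0, 15 against 0 and 15 against 5 psu.

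Named genes followed a rule: FPKM of at least 1 in all libraries with a 2-fold difference, FPKM of at least 5 in any library, the highest unigene of a family, secreted ligands with FPKM of at least 1, and 1 unigene for each toll-like receptor and SOCS protein. Of 218 such unigenes, those that add no further pattern are given by counts. Marker and pathway genes were matched by protein description or by the name of the Swissprot match. Alternatives were pseudocounts of 1 and 0.01, no filter or a filter of 5, 3 rescalings, members above 0 in both libraries, the highest unigene per description and turtle matches only. Members with a Swissprot match and members outside many-copy families were added after the data were seen, as were family sums without the unigenes that moved them most. Python 3.11.15, numpy 2.4.6, pandas 2.3.3 and matplotlib 3.10.9 were used, and the counting step was tested on simulated data.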

Additional observations from a re-analysis of the deposited data

Results flagged for a closer look

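The annotation rule left out 18 unigenes whose description holds a term of the rule but whose best match is in another genus. Of these, 5 were at least 2-fold above the freshwater library in a saltwater library with FPKM of at least 1. Unigenes lower in saltwater were not part of this selection. The unigene c112340_g1, matched to the interferon-inducible GTPase 5-like protein of Gekko japonicus, was listed at 10.36 at 5 psu and at 0 in the other libraries. Interleukin-17C-like c140001_g1, matched to the platypus, was at 1.73 at 5 psu and listed at 0 elsewhere. Interleukin enhancer binding factor 3 c176074_g1, with a human match, was at 3.45 at 5 psu and listed at 0 elsewhere. Interferon-inducible GTPase 5 c68726_g1, with a rat match, was at 1.26 at 5 psu and 0.88 at 15 psu and listed at 0 in freshwater. The alpha subunit of interleukin-27, c93502_g1, matched to Anolis carolinensis, was at 0.90 at 0 psu, 1.52 at 5 psu and 1.92 at 15 psu. None of these values has a replicate.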

How the results depend on the processing

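No paired analysis was possible because each salinity has 1 library, and for the same reason no replicate could be left out. The number of members that differed 2-fold, 123 at 5 against 0 psu, 109 at 15 against 0 psu and 122 at 15 against 5 psu, stayed within 1.5 times under other pseudocounts, no filter, 3 rescalings, turtle matches only and members with a Swissprot match. It was 31, 33 and 31 with a filter of FPKM 5, where 27.3% of those at 15 against 0 psu were higher in place of 37.6%, 57, 59 and 65 over members above 0 in both libraries, and 57, 56 and 52 with the highest unigene per description. Without many-copy families it was 76, 73 and 75. Each of these settings counts fewer unigenes.

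No named member above 0 in both libraries and 2-fold different changed direction under another pseudocount or rescaling. A pseudocount of 1 took 8 of 184, 7 of 182 and 14 of 182 values below 2-fold. Another rescaling was to the most abundant cytoplasmic actin, c115795_g1, whose match is named actin, cytoplasmic 2. It shifts every unigene by -0.03, -0.22 and -0.19 on the log2 scale. This brought 2 values at 15 against 0 psu below 2-fold and 7 above it. Scaling by the upper quartile gave unigenes that reach an FPKM of 1 in each library a median log2 ratio of 0.23, 0.11 and -0.10, against 0.08, 0.02 and -0.05 as deposited. With 1 pooled library per salinity, no fragment counts and values near an FPKM of 1, a 2-fold difference cannot be set against the spread between turtles.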

Other observations

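Outside the 5 genera, further unigenes belong beside the families described, and they did not share a direction. A second unigene of SOCS3, c116846_g2 with a Gekko match, of the same component as c116846_g1, was at 4.95 in freshwater, 3.1 at 5 psu and 5.35 at 15 psu. It was highest at 15 psu as well, at a smaller log2 fold change of 0.11 against 0 psu, and lowest at 5 psu. SOCS7 c87021_g1, with a Coturnix match, was at 1.81 in freshwater, 1.86 at 5 psu and 0.77 at 15 psu, 2-fold lower at 15 psu. TNFRSF12A c103583_g1, with a Python match, was at 3.14 in freshwater, 0.95 at 5 psu and 3.28 at 15 psu. Interleukin-1 receptor-associated kinase 4 c166943_g1, with a mouse match, was listed at 34.8 at 0 psu and at 0 in saltwater. The interleukin-11 receptor alpha chain, c119158_g3, which pairs with gp130, was at 86.02 in freshwater, 95.4 at 5 psu and 96.05 at 15 psu. It was above every interleukin receptor among the 517 members in mean level, and level across the libraries.

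Granulocyte markers were not uniform. The neutrophil oxidase subunit NCF1 (c115637_g1) was at 6.62 in freshwater, 7.83 at 5 psu and 9.06 at 15 psu and the oxidase chain CYBB (c117840_g2) at 13.1 in freshwater, 14.9 at 5 psu and 16.5 at 15 psu, in the order 0 under 5 under 15 psu, as were the receptors of the granulocyte colony-stimulating factor, while NCF4, given above, was lowest at 15 psu and myeloperoxidase-like c121046_g1 was at 7.07 in freshwater, 4.46 at 5 psu and 7.36 at 15 psu. The B cell product immunoglobulin J chain (c108586_g1) was at 181 in freshwater, 152 at 5 psu and 64.9 at 15 psu, in the reverse order.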
